A study of Mus musculus with 6 samples.

Results

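Cyclins, cyclin-dependent kinases (CDKs) and CDK inhibitors were followed in RNA of mouse embryonic fibroblasts. These are connective-tissue cells grown out of embryos. The genes were taken by symbol: a cyclin is Ccn followed by 1 letter with or without a number, a CDK is Cdk followed by a number, and an inhibitor is Cdkn followed by a number and a letter from a to d. This found 48 of the 53323 loci in the deposited tables, namely 24 cyclins, 17 CDKs and 7 inhibitors. Of these, 45 had enough fragments to be tested (21 cyclins, 17 CDKs and 7 inhibitors). Ccna1, Ccnb3 and Ccno stayed below the count filter.

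The study compared 3 libraries of Fbxw7 knockout (KO) cells with 3 libraries of wild-type (WT) cells. Both genotypes grew in DMEM with 15% FBS and 1% NEAA, and total RNA was made into Illumina TruSeq libraries. Beyond the words Fbxw7 KO and WT the labels gave no allele, deleted exon, Cre, strain, embryo, passage or sex. Separate cultures or animals behind the replicates were not stated either, so a p-value here reflects the spread among libraries, which may be technical. Fbxw7 encodes the substrate-binding F-box protein of an SCF ubiquitin ligase.

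A CDK is inactive until a cyclin binds it. Cyclin D with CDK4 or CDK6 starts the phosphorylation of RB proteins in G1, cyclin E with CDK2 drives entry into S phase, and cyclins A and B with CDK2 and CDK1 carry the cell through S phase and mitosis. INK4 inhibitors bind CDK4 and CDK6, CIP/KIP inhibitors bind cyclin-CDK complexes, and a separate set of cyclins and CDKs (cyclins C, H, K, L and T with CDK7, CDK8, CDK9, CDK12, CDK13 and CDK19) acts on RNA polymerase II, Mediator or splicing. Cyclin E is a known substrate of FBXW7, which acts on the protein; the measurements here are of RNA only.

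Fragments at Fbxw7 were 27.6, 27.4 and 24.1 CPM (fragments relative to the library total, adjusted by TMM normalization) in KO replicates 1, 2 and 3, against 29.5, 28.4 and 30.1 CPM in WT replicates 1, 2 and 3. The log2 fold change, KO over WT, was -0.16 ± 0.10 (standard error), with an adjusted p of 0.332 by the quasi-likelihood test of edgeR with Benjamini-Hochberg adjustment over all genes tested. These fragments are summed over the whole gene and the deleted part is not stated, so the value does not check the labels. In all 6 libraries the 11 fibroblast markers with a locus of their own summed to 33431 to 39909 CPM in KO and 31748 to 42700 CPM in WT. Of these 11 markers 4 passed the test, beside 16.1% of all genes: Lum (233 CPM in KO and 13.8 CPM in WT) and Dcn (1855 CPM in KO and 631 CPM in WT) were higher in KO, and Vim (2152 CPM in KO and 3832 CPM in WT) and Col6a1 (1342 CPM in KO and 2135 CPM in WT) were lower. The 35 markers of 6 other cell types summed to 4.33 to 5.20 CPM in KO and 11.0 to 14.2 CPM in WT, and 13 of them were at 0 in all libraries. The highest was the endothelial gene Kdr with at most 8.19 CPM. The locus named Xist, which also carries 2 small RNA genes, had 798 to 1046 CPM in KO and 0.213 to 2.17 CPM in WT, and the 4 Y-linked genes measured were all lower in KO (Ddx3y 30.4 ± 6.01 CPM in KO and 95.9 ± 13.8 CPM in WT, SD, n = 3). The genotypes therefore also differed in sex-linked transcripts, and what part this, the fibroblast markers or the endothelial markers have in any value below was not tested. Deposited totals, which were scaled per library, were 55720129 to 60402238 in KO and 62551369 to 64198455 in WT. With the scaling undone they were 57728134 to 70626080 fragments in KO and 51152441 to 66070414 in WT, which overlapped. Replicates were compared by the median over genes of their squared difference in units of counting variance, divided by the median that sampling noise alone gives. On this squared scale replicates 1 and 2 were close, at 5.84 in KO and 6.46 in WT. Replicate 3 was at 26.5 to 34.2 from them in KO and 22.2 to 24.6 in WT.

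Of the 45 tested members 10 passed an adjusted p of 0.05, 3 higher and 7 lower in KO, in a comparison where 16.1% of all 16787 genes passed (8.03% higher and 8.08% lower). Ccng1 and Cdk6 showed the smallest adjusted p, with Ccng1 at 53.8% and Cdk6 at 60.8% of the WT level. The other members that fell were Ccnd3, Cdk4, Cdk12, Cdk14 and Cdkn2a, and the transcriptional cyclins Ccnk and Ccnl2 rose. By class, 4 of 21 cyclins passed (2 higher, 2 lower), 4 of 17 CDKs passed (all 4 lower) and 2 of 7 inhibitors passed. The median log2 fold change was 0.03 over the cyclins, -0.10 over the CDKs and -0.34 over the inhibitors, beside 0.01 over all genes tested. The classes are described by these counts and medians, and no test was made of a difference between them. In bulk RNA fewer cells of a type and less RNA per cell cannot be told apart.

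The direction of the split depended on the scaling. With library size as the only scaling 9 members passed, 6 higher and 3 lower, where 11.7% of all genes passed as higher and 6.11% as lower, and the median of all genes moved to 0.10 on the log2 scale. Ccnd3, Ccng1, Cdk6, Ccnk and Ccnl2 passed in the same direction under both scalings. The KO and WT libraries did not overlap for 20 of the 45 members, 9 with KO above WT and 11 with KO below, beside 19.2% and 18.4% of all genes.

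Levels per length differed widely among the members. On the deposited FPKM scale, which divides by transcript length, Cdk4 had the highest level of all members with 353 ± 10.1 FPKM in KO and 480.3 ± 64.6 FPKM in WT (SD, n = 3), followed by Cdkn1a, Cdkn2a, Ccnd2, Ccng1 and Ccnd1. These 6 were the members with a mean of at least 100 FPKM over all libraries. Neighbours in this order overlapped: Cdkn1a had 341 ± 85.7 FPKM in KO and 474 ± 33.5 FPKM in WT, and Cdkn2a had 295 ± 42.4 FPKM in KO and 457 ± 36.0 FPKM in WT. Summed over all 48 members the level was 2261, 2368 and 2253 FPKM in KO, against 2895, 3009 and 3503 FPKM in WT, so every KO library lay below every WT library. The 11 cell-cycle cyclins (types A, B, D, E and F) summed to 450 ± 7.99 FPKM in KO and 685 ± 198 FPKM in WT, most of it cyclin D. The sums in WT replicates 1, 2 and 3 were 553, 591 and 913 FPKM, and Ccnd1 alone had 165, 166 and 405 FPKM there. The 7 transcriptional cyclins summed to 149 ± 7.26 FPKM in KO and 128 ± 1.95 FPKM in WT. The 6 transcriptional CDKs summed to 118 ± 2.84 FPKM in KO and 121 ± 7.47 FPKM in WT. These sums are descriptions without a test.

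**Figure D1:**
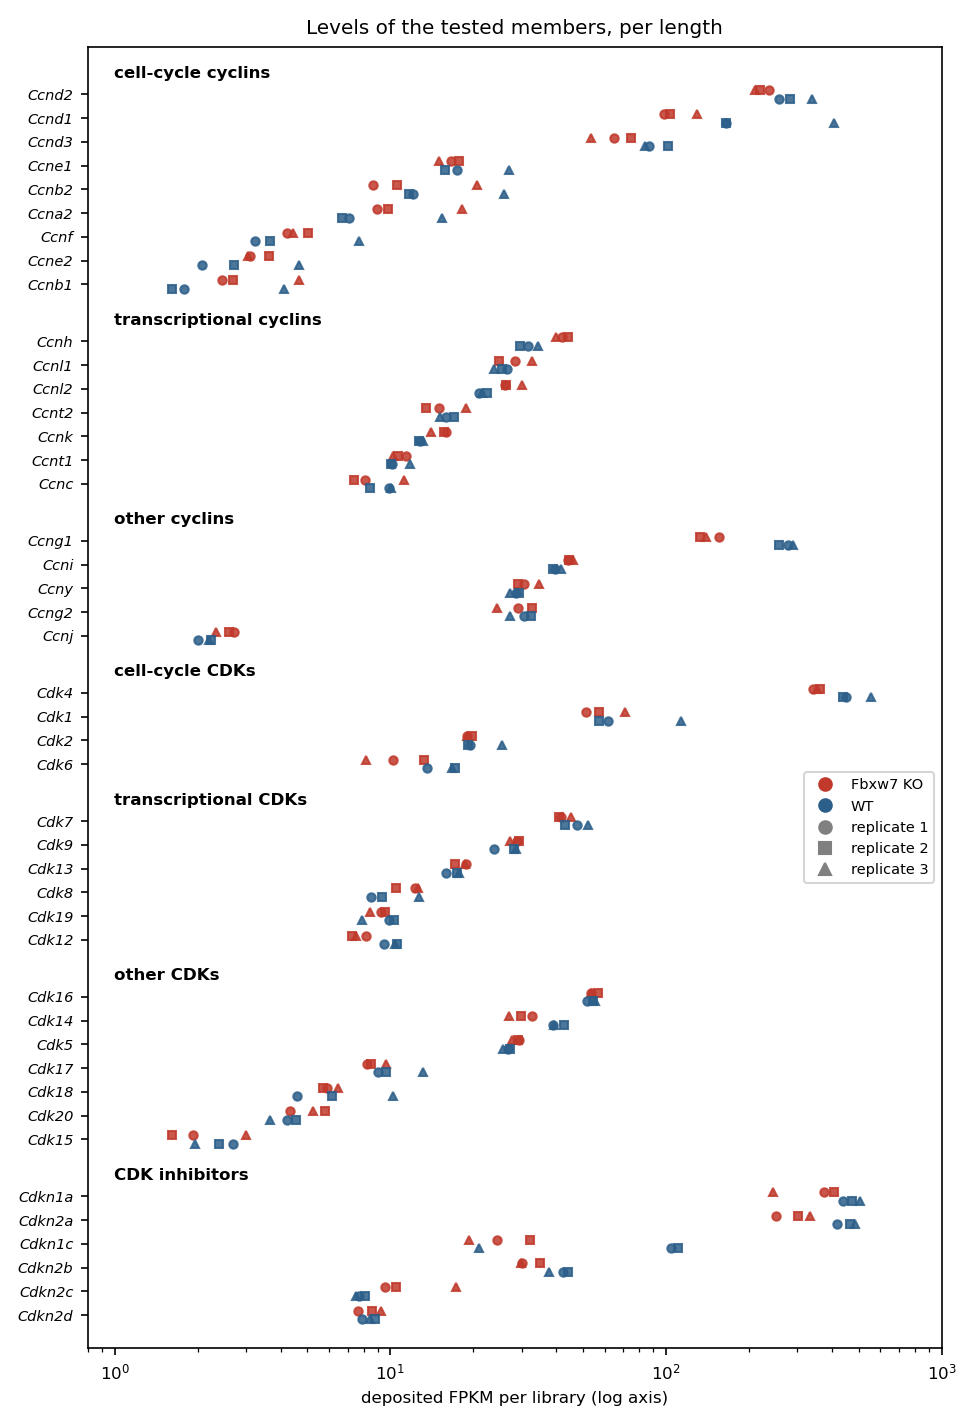
Deposited FPKM of 44 tested members in each library, KO (red) above WT (blue) for each gene, on a log axis, with marker shapes for replicates 1, 2 and 3 and genes ordered by mean level within class. Cdk4 lies highest among the CDKs, at 353 ± 10.1 FPKM in KO and 480.3 ± 64.6 FPKM in WT, and the D-type cyclins lie above the other cell-cycle cyclins in every library.

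**Figure D2:**
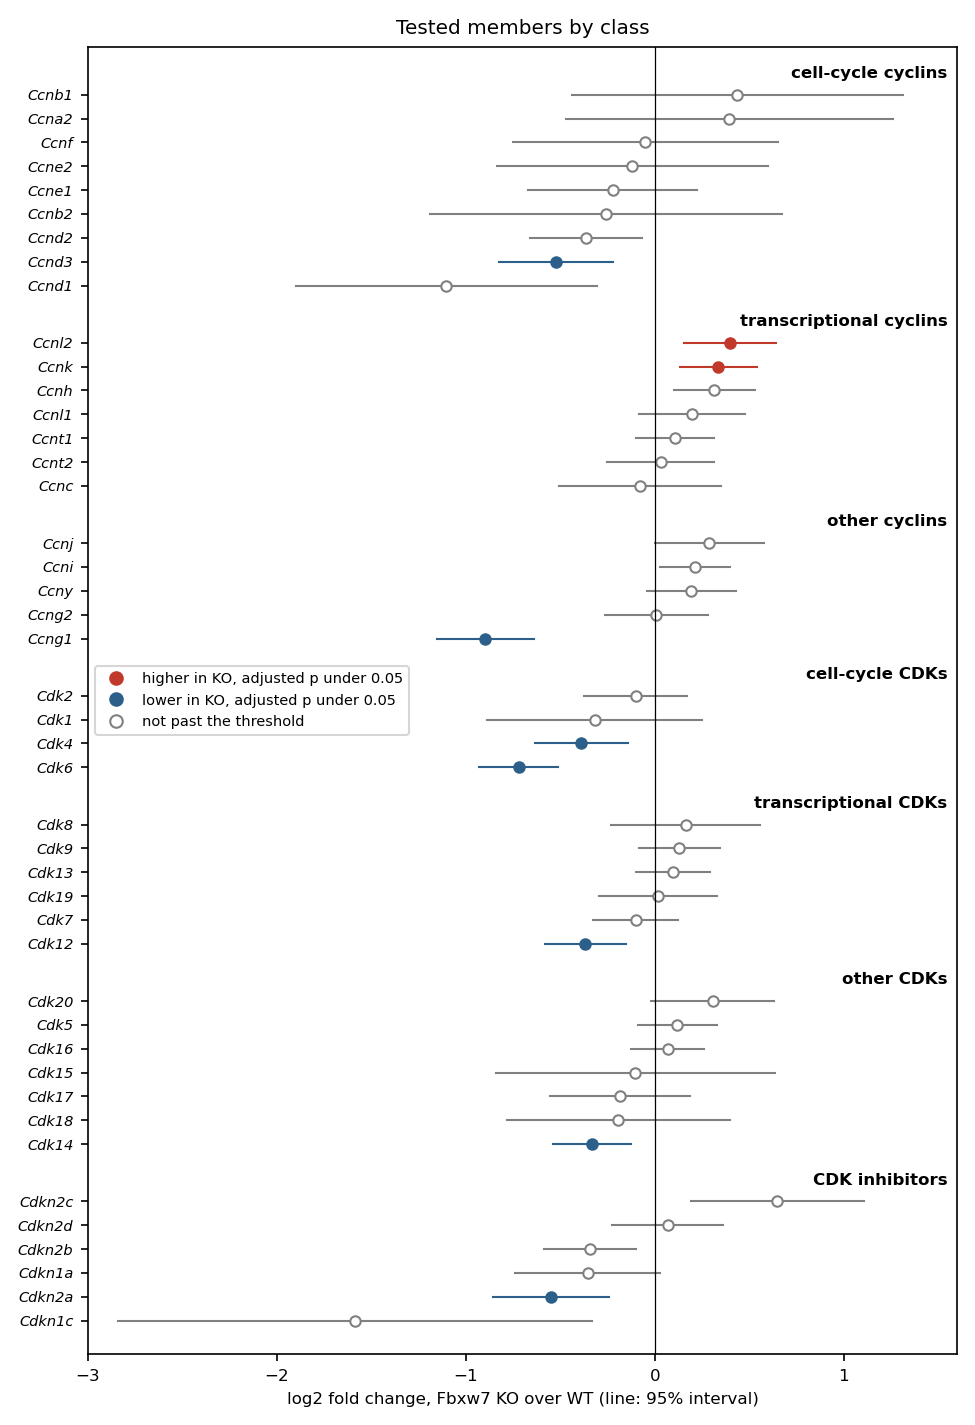
Log2 fold change, KO over WT, with its 95% interval for 44 tested members by class, filled where the adjusted p was under 0.05. Filled points among the CDKs all lie below 0, those among the transcriptional cyclins (Ccnk, Ccnl2) lie above 0, and the widest intervals belong to Cdkn1c and the mitotic cyclins.

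Promoters are shown for Cdk4 and Cdk6, catalytic partners of cyclin D that fell. Also shown are those of Ccnb1, Ccnb2 and Cdk1, the mitotic set, which moved with replicate number. Sequences are from RefSeq on GRCm38.p6, 250 bases before to 50 after the annotated start, 5′ to 3′ on the strand of the gene. Capitals mark 3 motifs searched on both strands: the E-box CACGTG (bound by MYC and related factors), the CCAAT box (CCAAT, or ATTGG on the other strand, bound by NF-Y) and the cell-cycle homology region TTTGAA (bound by the DREAM and MuvB complexes in mitotic genes). CACGTG was in 7.15%, CCAAT in 37.4% and TTTGAA in 17.9% of 32851 mouse promoters of the same length, and no marked motifs overlap in the windows shown.
Cdk4 promoter, chr10:127063285-127063584, plus strand: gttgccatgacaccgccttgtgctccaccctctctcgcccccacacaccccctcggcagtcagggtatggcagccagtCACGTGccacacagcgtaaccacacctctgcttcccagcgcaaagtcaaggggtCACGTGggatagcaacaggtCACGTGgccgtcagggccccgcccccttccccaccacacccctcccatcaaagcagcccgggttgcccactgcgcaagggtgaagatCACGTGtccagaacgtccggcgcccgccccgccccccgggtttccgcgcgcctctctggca
Cdk6 promoter, chr5:3343643-3343942, plus strand: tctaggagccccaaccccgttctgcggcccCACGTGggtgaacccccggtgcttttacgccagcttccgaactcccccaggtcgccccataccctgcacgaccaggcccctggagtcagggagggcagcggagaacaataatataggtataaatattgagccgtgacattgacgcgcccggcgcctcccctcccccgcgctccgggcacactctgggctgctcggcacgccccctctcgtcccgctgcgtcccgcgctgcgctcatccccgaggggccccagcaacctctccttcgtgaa
Ccnb1 promoter, chr13:100786437-100786736, minus strand: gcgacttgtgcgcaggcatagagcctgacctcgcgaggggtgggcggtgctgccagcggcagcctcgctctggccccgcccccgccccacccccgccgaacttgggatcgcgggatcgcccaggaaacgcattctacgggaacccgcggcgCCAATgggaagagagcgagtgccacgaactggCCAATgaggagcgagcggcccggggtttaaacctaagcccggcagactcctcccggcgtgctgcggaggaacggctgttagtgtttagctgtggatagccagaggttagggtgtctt
Ccnb2 promoter, chr9:70421505-70421804, minus strand: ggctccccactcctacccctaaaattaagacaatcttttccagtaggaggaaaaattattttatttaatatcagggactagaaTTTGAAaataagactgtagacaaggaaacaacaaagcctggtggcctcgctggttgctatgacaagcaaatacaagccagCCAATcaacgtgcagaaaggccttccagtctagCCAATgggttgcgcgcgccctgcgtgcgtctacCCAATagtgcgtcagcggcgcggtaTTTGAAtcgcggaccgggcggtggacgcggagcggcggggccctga
Cdk1 promoter, chr10:69352863-69353162, minus strand: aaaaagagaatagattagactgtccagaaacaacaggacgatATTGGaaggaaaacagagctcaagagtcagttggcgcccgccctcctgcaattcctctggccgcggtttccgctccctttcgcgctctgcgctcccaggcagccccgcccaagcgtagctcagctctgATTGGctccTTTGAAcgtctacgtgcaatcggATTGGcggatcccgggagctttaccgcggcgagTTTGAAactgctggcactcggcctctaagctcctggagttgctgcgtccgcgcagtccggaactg
The Cdk4 window held 4 E-boxes and the Cdk6 window 1. No CACGTG was in the promoters found for the other members that fell, Ccnd3, Ccng1, Cdk12, Cdk14 and Cdkn2a. The other members with CACGTG, namely Cdk7, Cdk8, Cdk18, Cdk20 and Cdkn2c, did not pass the test. Ccnb2 and Cdk1 each held 2 copies of TTTGAA and 3 CCAAT boxes, and Ccnb1 held 2 CCAAT boxes and no TTTGAA. A promoter was found for 38 of the 48 members, of which 7 held CACGTG, 20 held CCAAT and 6 held TTTGAA. These 38 members had 43 promoters, so counts per member are not on the same scale as the shares per promoter above. A match describes the letters in these windows and was not tested against binding.

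The 3 D-type cyclins, which bind CDK4 and CDK6, had lower values in KO, and 1 of them passed the test. Ccnd3 (cyclin D3, chromosome 17, 47505051 to 47599691, mm10) had 106, 114 and 83.9 CPM in KO replicates 1, 2 and 3, against 143, 157 and 136 CPM in WT. All KO libraries lay below all WT libraries, and KO replicate 3 was the lowest. Its log2 fold change was -0.52 ± 0.13 (adjusted p = 0.0320), and the call was lost without KO replicate 1, WT replicate 1 or WT replicate 2. A processed pseudogene, Ccnd3-ps, is 96.3% identical over 881 bases, so the division of reads between them is uncertain.

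Ccnd1 (cyclin D1, the mitogen-induced D cyclin) had 383, 398 and 505 CPM in KO, against 633, 619 and 1510 CPM in WT. The groups did not overlap, and WT replicate 3 stood far above the other WT libraries. Its log2 fold change was -1.10 ± 0.34 with a 95% interval of -1.90 to -0.31 and an adjusted p of 0.0666, so Ccnd1 did not pass. Without WT replicate 3 the value was -0.55 and passed the threshold (adjusted p = 0.0354), in a range of 2.21e-06 to 0.239 over 18 alternatives. The low end of this range came from the fit without replicate 3 of both genotypes, whose error rests on the close replicates 1 and 2.

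Ccnd2 (cyclin D2), the D-type cyclin with the highest mean FPKM in each genotype, had 1474, 1370 and 1373 CPM in KO, against 1644, 1684 and 2099 CPM in WT. No KO library reached the WT range, but the log2 fold change of -0.36 ± 0.13 did not pass (adjusted p = 0.0964). Of the summed FPKM of the 3 D-type cyclins, Ccnd2 made up 55.9 ± 2.92% in KO and 47.6 ± 5.76% in WT, Ccnd1 27.9 ± 4.41% in KO and 37.2 ± 10.2% in WT, and Ccnd3 16.2 ± 2.58% in KO and 15.2 ± 4.50% in WT (SD, n = 3). The Ccnd1 share of WT replicate 3 was 49.0%, above the 30.2% to 32.5% of the other WT libraries and above the 40.9% of Ccnd2 in the same library.

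Of the kinases that D-type cyclins activate, both fell. Cdk6 (chromosome 5, 3341485 to 3531008) had 96.0, 87.9 and 93.1 CPM in KO, against 144, 149 and 163 CPM in WT. In CPM the groups were far apart relative to their spread, and the log2 fold change was -0.72 ± 0.09 (adjusted p = 0.00240). The call was kept when any single library was left out and in 14 of 18 alternatives in all. It was lost in every fit on FPKM and with replicates 1 and 2 summed. The FPKM groups lay closer, at 10.2, 13.2 and 8.17 FPKM in KO, against 13.6, 17.2 and 16.8 FPKM in WT. Cdk4 (chromosome 10, 127063534 to 127067920) had 369, 376 and 368 CPM in KO, against 458, 453 and 546 CPM in WT. The KO libraries were nearly equal and lay below all WT libraries, with WT replicate 3 the highest. Its log2 fold change was -0.39 ± 0.11 (adjusted p = 0.0447), and leaving out any 1 of the 6 libraries ended the call, with adjusted p from 0.0535 to 0.165. Tspan31, which overlaps Cdk4 and shares 641 bases of transcript with it, had a log2 fold change of -0.06 ± 0.09. Per length, Cdk4 made up 97.1 ± 0.628% of the 2 kinases in KO and 96.8 ± 0.487% in WT.

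**Figure D3:**
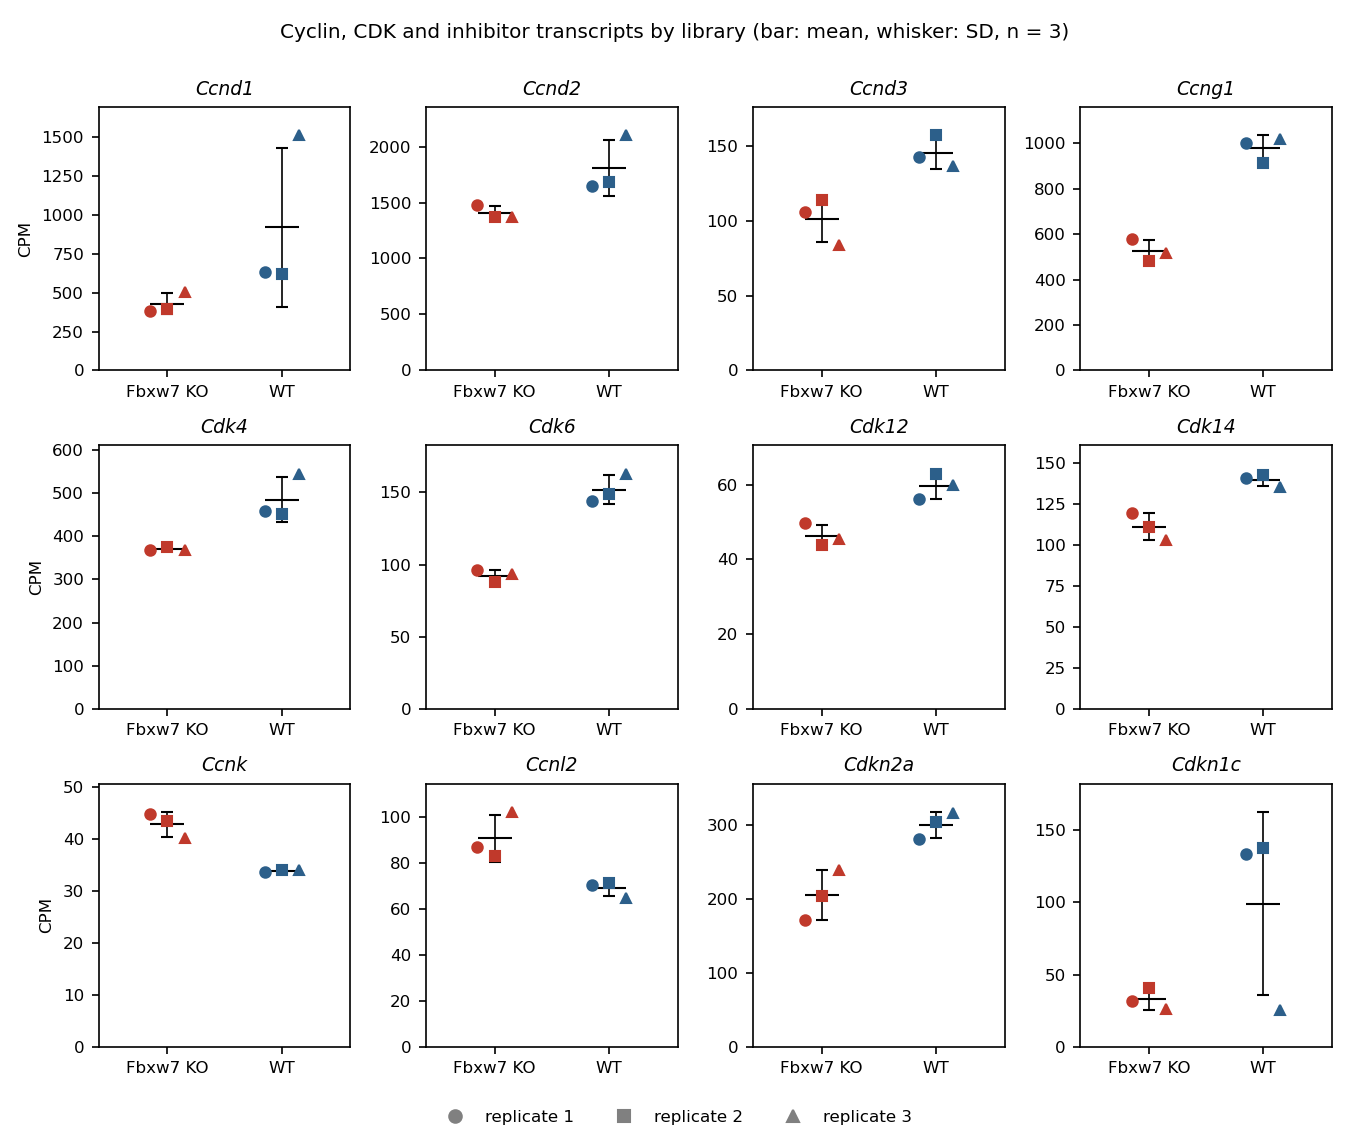
CPM in each library for 12 members, KO left of WT, with the mean (bar) and SD (whisker) of 3 libraries and marker shapes for replicates 1, 2 and 3. KO lies below WT without overlap for Ccnd1, Ccnd2, Ccnd3, Ccng1, Cdk4, Cdk6, Cdk12, Cdk14 and Cdkn2a and above it for Ccnk and Ccnl2, and WT replicate 3 stands apart in Ccnd1 and Cdkn1c.

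Neither E-type cyclin, the partners of CDK2 at the start of S phase, passed the test. Ccne1 (cyclin E1) had 32.5, 33.6 and 28.7 CPM in KO, against 32.1, 29.4 and 49.1 CPM in WT. The groups overlapped, and only WT replicate 3 lay apart. The log2 fold change was -0.22 with a 95% interval of -0.67 to 0.23 (adjusted p = 0.479). Ccne2 (cyclin E2) had 8.18, 5.87 and 7.82 CPM in KO, against 5.97, 5.61 and 12.2 CPM in WT, and its log2 fold change was -0.12 with an interval of -0.84 to 0.60 (adjusted p = 0.831). The sign of both turned positive without WT replicate 3, at 0.04 for Ccne1 and 0.33 for Ccne2, and neither passed in any of 18 alternatives. Cdk2 had 41.2, 40.1 and 43.2 CPM in KO, against 41.8, 39.9 and 51.9 CPM in WT. These groups overlapped too, with a log2 fold change of -0.10 and an interval of -0.38 to 0.17 (adjusted p = 0.609). Ccne1 made up 83.5 ± 0.694% of E-type FPKM in KO and 86.7 ± 2.33% in WT.

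The A- and B-type cyclins and their kinase Cdk1, which carry cells through S phase and mitosis, followed the replicate number more than the genotype. Ccna2 (cyclin A2) had 27.3, 29.6 and 53.5 CPM in KO, against 20.5, 19.2 and 44.2 CPM in WT. Ccnb1 (cyclin B1) had 5.30, 5.48 and 9.40 CPM in KO, against 3.65, 3.32 and 7.93 CPM in WT. Replicate 3 was the highest library of its genotype for both genes, and the groups overlapped. Ccnb2 (cyclin B2) had 12.6, 15.1 and 30.3 CPM in KO, against 17.2, 16.3 and 35.7 CPM in WT. Cdk1 had 42.3, 44.7 and 57.9 CPM in KO, against 50.4, 45.0 and 85.2 CPM in WT. Replicate 3 was again the highest in both genotypes. None of these 4 passed the test of genotype, with adjusted p of 0.424 to 0.708. The log2 fold changes were 0.40 ± 0.37 for Ccna2, 0.44 ± 0.38 for Ccnb1, -0.26 ± 0.40 for Ccnb2 and -0.32 ± 0.24 for Cdk1. At each replicate number KO lay above WT for Ccna2 and Ccnb1 and below it for Ccnb2 and Cdk1. With the replicate number as a block in edgeR none passed either. Adjusted p was then 0.0548 for Ccna2, 0.102 for Ccnb1, 0.177 for Ccnb2 and 0.215 for Cdk1.

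Replicate 3 was 1.88 times the mean of replicates 1 and 2 in KO and 2.23 times in WT for Ccna2, 1.74 times in KO and 2.28 times in WT for Ccnb1, and 2.19 times in KO and 2.13 times in WT for Ccnb2. These were 3 of the 9 tested cell-cycle cyclins with a ratio of at least 1.5 in both genotypes, beside 2.12% of all genes tested, and Cdk1 had 1.33 in KO and 1.79 in WT. Without replicate 3 of both genotypes, an alternative added after the data were seen, Ccna2 (log2 fold change 0.52), Ccnb1 (0.63) and Ccnf (0.44) passed as higher in KO, in a comparison where 41.3% of all genes passed. The genotype difference of Ccnb2 was -0.28 there and did not pass. That fit takes its error from replicates 1 and 2 alone, so its p-values reflect the spread of a close pair. With replicates 1 and 2 summed, 0 members and 2.68% of all genes passed. Ccnf (cyclin F, an F-box protein) was high in WT replicate 3 only, at 14.6 ± 1.15 CPM in KO and 15.1 ± 7.46 CPM in WT. Of B-type FPKM, Ccnb1 made up 22.0%, 20.2% and 18.4% in KO, against 12.8%, 12.1% and 13.7% in WT, so its share was higher in every KO library. Ccnb1 has 5 pseudogene copies of 94.4% to 99.2% identity, among them Ccnb1-ps with 3.66 CPM in KO and 2.61 CPM in WT, so its level and share are uncertain.

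**Figure D4:**
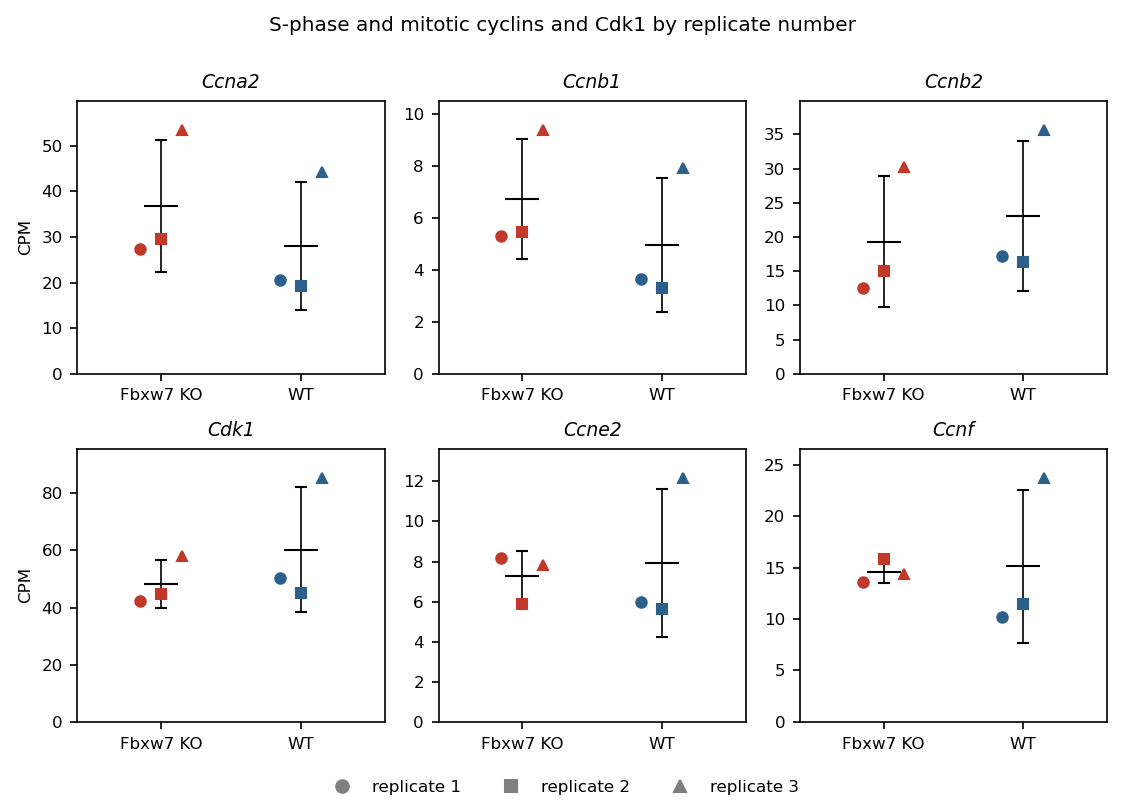
CPM in each library for Ccna2, Ccnb1, Ccnb2, Cdk1, Ccne2 and Ccnf, KO left of WT, with the mean (bar) and SD (whisker) of 3 libraries. Replicate 3 (triangle) is the highest library of both genotypes for Ccna2, Ccnb1, Ccnb2 and Cdk1, and of WT alone for Ccne2 and Ccnf.

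Most other mitosis genes showed the same pattern by replicate, which in KO was weak or absent in the S-phase genes Pcna, Rrm2 and Tk1. Of the 19 S-phase and mitosis genes measured, none passed the test of genotype by edgeR (1 at an unadjusted p under 0.05 and 1 by DESeq2, Mybl2), beside 16.1% of all genes. In both genotypes 12 had a replicate 3 at least 1.5 times the mean of replicates 1 and 2, beside 2.12% of all genes. For the remaining genes this ratio in KO was 0.961 (E2f1) to 1.43 (Top2a), with Pcna, Rrm2, Mybl2, Tk1 and Aurkb between. Top2a, the DNA topoisomerase of dividing cells, had 117, 119 and 169 CPM in KO, against 91.8, 82.7 and 160 CPM in WT. Replicate 3 was the highest of both genotypes. Rrm2, a subunit of ribonucleotide reductase, had 53.2, 55.2 and 53.3 CPM in KO, against 36.6, 34.3 and 73.4 CPM in WT. Only WT replicate 3 was high. The log2 fold changes were 0.28 ± 0.26 for Top2a and 0.16 ± 0.27 for Rrm2. Of 31 measured regulators of cyclins and CDKs 1 passed, beside 16.1% of all genes: Cdk2ap2, a CDK2-associated protein, had 19.5, 23.2 and 18.5 CPM in KO, against 14.8, 15.4 and 14.1 CPM in WT. The groups did not overlap (log2 fold change 0.47 ± 0.12, adjusted p = 0.0383). The count among the regulators was 0 without KO replicate 1 or 2 or WT replicate 1 or 2, where 6.79% to 8.5% of all genes passed, and 4 without WT replicate 3, where 18.5% did.

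Among the inhibitors, results are given for 6. Cdkn2a (chromosome 4, 89274471 to 89294653), which encodes the INK4 inhibitor p16 and, from another reading frame, the p53 activator ARF, had 172, 204 and 240 CPM in KO, against 281, 304 and 316 CPM in WT. All KO libraries lay below all WT libraries, and KO replicate 1 was the lowest. The log2 fold change was -0.55 ± 0.13 (adjusted p = 0.0300). The locus was summed, so the 2 products could not be separated, and the call was lost without any 1 library other than KO replicate 3. Its chromosomal neighbour Cdkn2b (p15) had 38.8, 44.2 and 39.0 CPM in KO, against 53.4, 54.8 and 46.3 CPM in WT. Here too KO lay below WT throughout, and the log2 fold change of -0.34 ± 0.11 did not pass (adjusted p = 0.0653).

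Cdkn2c (p18) had 14.4, 15.6 and 23.9 CPM in KO, against 11.1, 11.2 and 12.0 CPM in WT. KO lay above WT, with replicate 3 the highest of the KO libraries, and the log2 fold change of 0.65 ± 0.20 did not pass (adjusted p = 0.0618). Cdkn2d (p19, the INK4 protein) had 10.1, 11.0 and 12.3 CPM in KO, against 10.1, 11.2 and 10.6 CPM in WT. These overlapped, with a log2 fold change of 0.07 and an interval of -0.22 to 0.36 (adjusted p = 0.754).

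Cdkn1a (p21, a p53 target) had 553, 581 and 381 CPM in KO, against 606, 653 and 679 CPM in WT. The groups did not overlap, KO replicate 3 was low, and the log2 fold change of -0.36 ± 0.16 did not pass in any of 18 alternatives (adjusted p = 0.185). Cdkn1c (p57, an imprinted inhibitor) had 31.8, 41.0 and 26.3 CPM in KO, against 134, 138 and 25.8 CPM in WT. WT replicate 3 lay below all KO libraries while the other WT libraries lay above them. The log2 fold change was -1.58 ± 0.54 with an interval of -2.84 to -0.33 (adjusted p = 0.0882). Without WT replicate 3 it was -2.04 and passed (adjusted p = 0.000906, range 1.61e-09 to 0.421 over 18 alternatives). The fit without replicate 3 of both genotypes, whose error rests on the close replicates 1 and 2, gave the low end of this range.

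Of the 9 tested cell-cycle cyclins 1 passed, lower in KO, and of the 7 transcriptional cyclins 2 passed, both higher, beside 8.03% of all genes higher and 8.08% lower. With so few members in each set nothing was read from these shares. The median log2 fold change was -0.22 over the cell-cycle cyclins, with 2 above 0 and 7 below, and 0.20 over the transcriptional cyclins, with 6 above 0 and 1 below. The cell-cycle median turned to 0.20 without WT replicate 3 and to 0.10 without replicate 3 of both genotypes, whereas the transcriptional median was 0.16 in both. Without KO replicate 3 the cell-cycle median was -0.18 and the transcriptional median 0.10. With library size as the only scaling they were -0.13 and 0.29. The difference between the sets was not tested.

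Ccnl2 (cyclin L2, a partner of CDK11 in splicing, chromosome 4, 155812489 to 155824543) had 86.9, 83.0 and 102 CPM in KO, against 70.4, 71.4 and 64.9 CPM in WT. All KO libraries lay above all WT libraries, and the log2 fold change was 0.40 ± 0.10 (adjusted p = 0.0396). Ccnk (cyclin K, the partner of CDK12 and CDK13, chromosome 12, 108179579 to 108203359) had 44.8, 43.4 and 40.2 CPM in KO, against 33.6, 34.0 and 33.9 CPM in WT. The WT libraries were nearly equal and lay below all KO libraries, and the log2 fold change was 0.34 ± 0.09 (adjusted p = 0.0376). Of the 6 libraries, only KO replicate 3 could be left out with either call kept.

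Ccnh (cyclin H, which activates CDK7) had 44.3, 43.4 and 47.0 CPM in KO, against 38.2, 33.6 and 36.4 CPM in WT. KO lay above WT in every library, and the log2 fold change of 0.31 ± 0.09 did not pass (adjusted p = 0.0559). Ccnl1 (cyclin L1) had 57.9, 50.2 and 66.7 CPM in KO, against 53.6, 51.6 and 47.4 CPM in WT, which overlapped (log2 fold change 0.20 ± 0.12, adjusted p = 0.316). Cyclins T1, T2 and C, of the CDK9 and CDK8 complexes, had log2 fold changes of 0.11, 0.03 and -0.08, and their groups overlapped.

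Among the 6 transcriptional CDKs, Cdk12 (chromosome 11, 98203059 to 98278504), which phosphorylates RNA polymerase II during elongation, was the only one past the threshold. It had 49.6, 43.7 and 45.3 CPM in KO, against 56.1, 62.7 and 59.9 CPM in WT. KO lay below WT throughout, with a log2 fold change of -0.37 ± 0.09 (adjusted p = 0.0355), and the call was lost without KO replicate 1 or 2 or WT replicate 1 or 2. Its cyclin, Ccnk, thus had the opposite sign, while the related Cdk13 had 86.6 ± 4.73 CPM in KO and 81.0 ± 2.95 CPM in WT (log2 fold change 0.10, adjusted p = 0.485). Cdk7, of the CDK-activating kinase and TFIIH, had 55.1, 54.2 and 60.2 CPM in KO, against 61.8, 55.2 and 64.8 CPM in WT. Cdk9, the kinase of P-TEFb, had 47.8, 49.2 and 46.5 CPM in KO, against 39.9, 45.3 and 45.8 CPM in WT. The Cdk7 groups overlapped and the Cdk9 groups did not, and neither passed (log2 fold change -0.10 ± 0.10 for Cdk7 and 0.13 ± 0.09 for Cdk9, adjusted p = 0.526 and 0.382). The Mediator kinases Cdk8 and Cdk19 had log2 fold changes of 0.16 and 0.02 and overlapping groups.

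Outside both sets, Ccng1 showed the largest shift of any member past the threshold. Ccng1 (cyclin G1, a p53 target that recruits the phosphatase PP2A, chromosome 11, 40748552 to 40755311) had 577, 483 and 517 CPM in KO, against 1002, 914 and 1018 CPM in WT. The lowest WT library lay well above the highest KO library. The log2 fold change was -0.90 ± 0.11 (adjusted p = 0.00235), and it passed in 17 of 18 alternatives, every library left out in turn included. The exception was the fit with replicates 1 and 2 summed, where its adjusted p lay just above the threshold. Its relative Ccng2 (cyclin G2) had 81.2 ± 8.68 CPM in KO and 80.7 ± 8.18 CPM in WT, with a log2 fold change of 0.01 and an interval of -0.26 to 0.28.

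Ccni (cyclin I) had 122, 123 and 119 CPM in KO, against 104, 102 and 109.5 CPM in WT. The groups did not overlap, and the log2 fold change of 0.21 ± 0.08 did not pass (adjusted p = 0.116). KO also lay above WT without overlap, and without passing, for Ccnj (0.29) and Ccny (0.19), the activator of CDK14 and CDK16.

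Of the 7 remaining CDKs, Cdk14 (chromosome 5, 4803391 to 5420312), a cyclin Y partner in Wnt signalling, passed. It had 119, 111 and 103 CPM in KO, against 141, 143 and 135 CPM in WT. KO lay below WT in all libraries (log2 fold change -0.33 ± 0.09, adjusted p = 0.0435), and the call was lost without any 1 library other than WT replicate 3. Cdk16 (also a cyclin Y partner) had 159, 168 and 158 CPM in KO, against 148, 158 and 156 CPM in WT, and the groups overlapped (log2 fold change 0.07 ± 0.08, adjusted p = 0.616). Cdk5, Cdk15, Cdk17, Cdk18 and Cdk20 had log2 fold changes of -0.19 to 0.31, and all 5 overlapped.

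The germline and multiciliated-cell cyclins were near or at 0. Ccnb3 had at most 1.25 estimated fragments in any library, Ccna1 at most 5.01 and Ccno between 3.16 and 11.3. No fold change is given for them.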

How the data were processed

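Per the labels' protocols RNA was extracted with Trizol and a column kit and sequenced as Illumina TruSeq libraries. Per the submitters' processing notes reads were processed on mm10 with Cufflinks 2.2.1, TopHat2 2.1.1, SAMtools 1.5 and deepTools. Annotation and strand use are not given in the sources used here. Tables hold estimated counts (expected fragments per locus) and FPKM made by the authors with Cufflinks, per the file headers and notes. Between 88.9% and 89.5% of a library's values up to 1000 were multiples of a single step within 0.05, which shows scaling by 1 factor before deposit. Loci without a name (1317) and named loci skipped for excess fragments (9) were left out of the tests, and 0 other per-sample columns existed.

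After rounding, estimated counts went into the two-sided quasi-likelihood F test of edgeR 4.0.16 (R 4.3.3; robust fit, TMM factors, filterByExpr; genotype was the only term), with Benjamini-Hochberg values over 16787 genes and a threshold of 0.05. The test was run on simulated data first. It recovered 29.85% of genes changed 1.5-fold, 77.6% at 2-fold and 100% at 4-fold, with 7 false calls in 16787 genes. Changes of 1.5-fold were thus mostly missed there. The simulated libraries were drawn independently, whereas in the data replicates 1 and 2 of a genotype were closer to each other than to replicate 3. The simulated rates therefore do not carry over to these libraries. Errors of log2 fold changes are standard errors, and other errors are SD over 3 libraries. Intervals are 95%. No molecular identifiers are stated, so depth covers counting error only.

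The members, gene lists and alternatives were chosen with earlier results of these data known. Library values are given for members past the threshold, the A, B, D and E cyclins, CDK1, 2, 4 and 6, the inhibitors and the 2 highest members by FPKM of each other subclass. Values of 1 inhibitor gene are not reported here, but counts, medians and sums include it. Cdk2ap2, Top2a and Rrm2 follow the same rule. Ccnf, Ccng2, Cdk13, Mybl2, Pcna, E2f1, Tk1, Aurkb, Lum, Dcn, Vim, Col6a1, Kdr and Ddx3y were named after their values were seen.

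Alternatives were DESeq2 size factors, library size only, no count filter, at least 1 CPM in 3 libraries, the DESeq2 1.42.0 Wald test, the replicate block, each library left out, limma 3.58.1 on log2 FPKM with a pseudocount of 1 or 0.1 (genes averaging 1 FPKM or more, or unfiltered), and 3 added later. Positions are from GENCODE M21, promoters from RefSeq, and copies were found with BLAST 2.17.0 (at least 90% identity over 200 bases).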

Additional observations from a re-analysis of the deposited data

How the results depend on the processing

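Once the data had been seen 3 alternatives were added: unscaled counts, both replicates 3 left out, and replicates 1 and 2 summed. With each library left out in turn the number of genes past the threshold ranged from 1169 to 3282 over all genes (2705 with all 6 libraries), from 2 to 9 over the members (10), from 1 to 4 over the cyclins (4), from 1 to 3 over the CDKs (4), from 0 to 3 over the inhibitors (2), from 0 to 2 over the cell-cycle cyclins (1), from 0 to 2 over the transcriptional cyclins (2), from 0 to 4 over the regulators (1) and from 0 to 3 over the S-phase and mitosis genes (0). Without replicate 3 of both genotypes the counts were 6993 genes, 23 members, 13 cyclins, 5 inhibitors, 6 cell-cycle cyclins, 4 transcriptional cyclins, 12 regulators and 10 S-phase and mitosis genes. That fit takes its error from the close replicates 1 and 2 alone. With replicates 1 and 2 summed they were 478 genes and 0 members, hence 0 cyclins, CDKs and inhibitors, and 0 regulators. The summing leaves 2 samples in each genotype. With limma on log2(FPKM + 1) 1562 genes, 5 members, 2 cyclins, 1 CDK, 0 cell-cycle cyclins and 1 transcriptional cyclin passed, with a pseudocount of 0.1 these were 1615, 5 of the 10 members and 1 other (6), 2, 2, 0 and 1, and without the filter on low values 1182, 1, 1, 0, 0 and 0, with 0 inhibitors. The DESeq2 Wald test called 7 cyclins, 4 inhibitors, 3 cell-cycle cyclins, 4 regulators and 1 S-phase and mitosis gene. Library size alone gave 1 CDK, 2 regulators and 1 S-phase and mitosis gene, no count filter gave 1 CDK, 1 transcriptional cyclin, 3 regulators and 1 S-phase and mitosis gene, and DESeq2 size factors gave 3 regulators. The cause of these differences was not tested.

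By a chosen minimum correlation of 0.1 the replicate numbers were not taken to pair the samples. The deviations of same-numbered libraries correlated at 0.02, 0.10 and 0.08, each under that minimum. A cutoff of this kind cannot exclude pairing, which was not tested otherwise. In both genotypes 12 of 19 S-phase and mitosis genes had replicate 3 at least 1.5 times the mean of replicates 1 and 2. Of all genes tested 2.12% did. With the replicate number as a block 2356 genes passed, with 6 members, 1 CDK, 2 cell-cycle cyclins, 0 transcriptional cyclins and 2 regulators.

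Over the 44 reported members, Fbxw7, Cdk2ap2, Top2a and Rrm2, the log2 fold change with each library left out in turn ranged through 0 for Cdkn2d (-0.0145 to 0.133), Cdk1 (-0.492 to 0.0164), Cdk2 (-0.176 to 0.0208), Cdk15 (-0.493 to 0.134), Cdk17 (-0.282 to 0.00714), Cdk18 (-0.380 to 0.182), Cdk19 (-0.113 to 0.0891), Ccnb2 (-0.748 to 0.201), Ccne1 (-0.365 to 0.0375), Ccne2 (-0.317 to 0.330), Ccnf (-0.269 to 0.430), Ccng2 (-0.0749 to 0.0914), Ccnc (-0.301 to 0.0797), Ccnt2 (-0.0843 to 0.132) and Rrm2 (-0.0325 to 0.602). Without replicate 3 of both genotypes the sign changed for Cdkn2d (-0.0130), Cdk18 (0.110), Cdk19 (-0.0538), Ccne1 (0.105), Ccne2 (0.279), Ccnf (0.445) and Ccnt2 (-0.127). It also changed with limma at a pseudocount of 1, with or without the filter, for Ccne2 (0.0852), Cdk19 (-0.0292), Ccng2 (-0.0656) and Ccnt2 (-0.0356), and at 0.1 for Ccne2 (0.125), Cdk19 (-0.0314), Ccng2 (-0.0678), Ccnt2 (-0.0382) and Ccnf (0.00798). Library size alone changed it for Cdk15 (0.00307), Ccnf (0.0453) and Ccnc (0.0225), replicates 1 and 2 summed for Cdk15 (0.136), Ccnc (0.0228) and Rrm2 (-0.0220), the replicate block for Ccnf (0.0543), and DESeq2 for Ccng2 (-0.000988 with its size factors and -0.000985 in the Wald test). Of these changed signs 1 was past the threshold, Ccnf without replicate 3 of both genotypes (adjusted p = 0.00575 by edgeR, 0.00575 to 0.993 over its alternatives). The 9 named members past the threshold kept their sign in all 162 fits and stayed past it in 88. Their KO and WT libraries did not overlap in CPM, and every fit reused these libraries. A kept sign was thus close to fixed beforehand and is no separate support. With 3 libraries a genotype the number of libraries, not the depth, limits the precision: every tested member had at least 159 estimated fragments in each library.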
